A study of Caenorhabditis elegans with 6 samples.

Results

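Fatty acid desaturases and elongases are the enzymes with which Caenorhabditis elegans turns saturated fatty acids into unsaturated ones and lengthens their chains. The 9 genes described here are fat-1 to fat-7 and the elongase genes elo-1 and elo-2. They were found by gene name, and each had 1 row in a table of 46748 genes. All 9 were among the 15404 genes that passed the filter on low counts. Their counts ran from 366 to 30544 reads per library.

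The nematode, unlike mammals, makes its polyunsaturated fatty acids from simple precursors. In the textbook pathway ELO-2 lengthens palmitic to stearic acid, and FAT-5, FAT-6 and FAT-7 put the first double bond into palmitoyl-CoA (FAT-5) or stearoyl-CoA (FAT-6 and FAT-7). FAT-2 then makes linoleic from oleic acid, FAT-3 adds a further double bond, ELO-1 lengthens the chain, FAT-4 makes arachidonic and eicosapentaenoic acid, and FAT-1 turns omega-6 into omega-3 fatty acids. The intestine is a main site of this synthesis in the adult, and its lipids are passed to the oocytes with the yolk.

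RNA was sequenced from whole adult worms in 6 libraries, 2 for each of 3 strains, each from 100 egg-bearing adults kept at 20 °C on an OP50 lawn. N2, the usual wild-type reference, has no transgene. The strains WT (OD1463) and SIN (OD1175) are both homozygous for the deletion allele csr-1(tm892) and for their transgenes, and were picked by motility from the progeny of balanced heterozygous mothers. CSR-1 is an Argonaute of the germline, able to cleave transcripts matched by its 22G small RNAs; the labels do not spell out SIN and WT, which from what is known of the study are a slicing-inactive and a normal CSR-1 transgene. Whether each transgenic strain rests on 1 insertion is not given in the labels.

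The libraries held 33739391 to 44962816 counts, and the 9 genes together took 0.203% to 0.261% of them. The check of the labels is csr-1 itself, which stood at 2913 and 3308 CPM in SIN against 662 and 636 (WT) and 445 and 476 (N2); transgene reads could not be separated from those of the mutated chromosomal csr-1 locus. CPM is a gene's count relative to the size of its library, after the libraries were scaled to each other (TMM). N2 replicate 1 stood apart from its partner: across tested genes, log2 CPM correlated with r = 0.981 between the N2 libraries, 0.996 between the WT and 0.994 between the SIN libraries. It also held 3827 counts of the cuticle collagen gene sqt-3, against 91 to 296 in the other 5 libraries, and 407 of dpy-7, against 3 to 45. The collagen genes col-19 and col-140 were instead lower than in its partner, at 13031 against 49100 and 28521 against 77781 counts. Nothing in the labels says that replicates were separate cultures, so p-values measure library-to-library spread only, and that may be technical.

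Among the 9 genes, fat-5 differed most between the strains, and WT was the strain that departed. Its mean level was 11.2 ± 0.012 CPM in WT, 54.2 ± 18 CPM in N2 and 54.9 ± 8.5 CPM in SIN (SD, n = 2). Transcripts of the remaining 8 genes stayed within 2.32-fold between any pair of the 6 libraries. The gene fat-4, for the desaturase that makes arachidonic acid, was the other one to pass the test in SIN versus WT, with a small difference. Levels of the genes fat-1 to fat-3 were higher, and of elo-1 and elo-2 lower, in SIN than in WT on average, without passing the test.

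**Figure D1:**
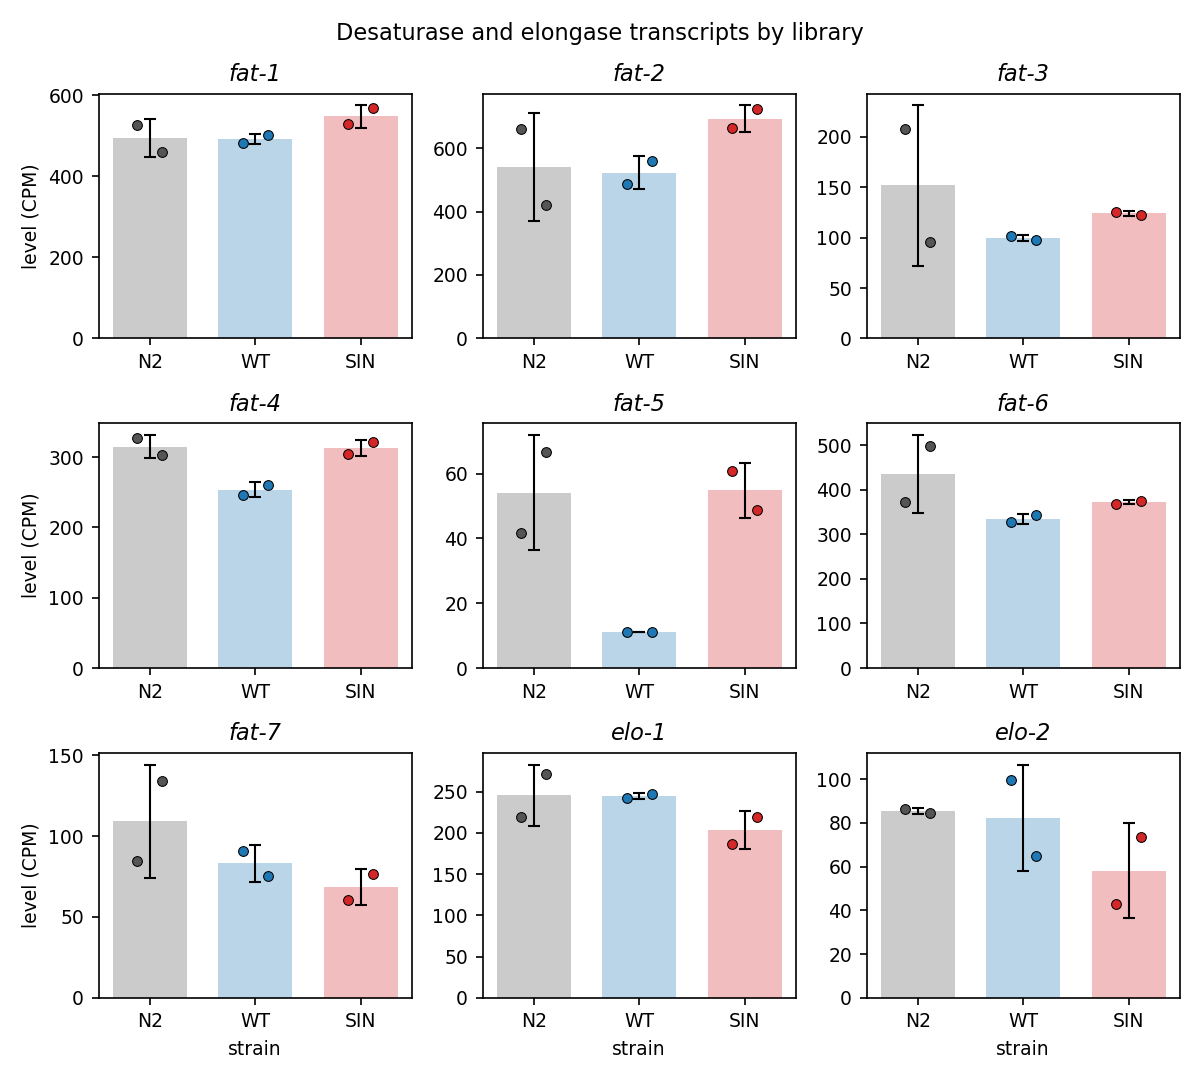
Level of each gene in CPM (vertical axis from 0) by strain; points are the 2 libraries (replicate 1 left), bars the mean and error bars the SD. The WT bar of fat-5 stands at 11.2 CPM against 54.2 in N2 and 54.9 in SIN, and the N2 points of fat-3 are 208 and 95.5 CPM.

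The gene fat-5 (chromosome V, 17725004 to 17726818, plus strand, WBcel235) encodes the desaturase that acts on palmitoyl-CoA. It was at 41.6 and 66.7 CPM in the N2 libraries, 11.2 and 11.2 in the WT libraries and 60.9 and 48.8 in the SIN libraries. Both WT libraries lay far below the other 4 and differed by less than the counting error of their 460 and 366 reads, and the N2 and SIN libraries overlapped. SIN exceeded WT 4.88-fold (log2 2.29 ± 0.25 SE; edgeR quasi-likelihood test, p adjusted after Benjamini-Hochberg over all 15404 genes, adjusted p = 0.00347). This call held in all 12 alternatives tried (other scalings, filter, tool or model, and each library left out), with log2 fold changes of 2.11 to 2.43 and adjusted p from 4.98e-39 to 0.0488. In SIN versus N2 the log2 fold change was 0.02 ± 0.23 (adjusted p = 0.96).

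Against N2, WT was 4.82-fold lower in fat-5 (log2 -2.27 ± 0.25 SE), and edgeR's adjusted p of 0.0502 just missed the threshold of 0.05. The difference was about as large as that between SIN and WT, and the strains did not overlap. It passed in 6 of the 12 alternatives, among them RLE scaling, which uses the size factors of DESeq2 (adjusted p = 0.0454), and DESeq2 (1.96e-15). Without N2 replicate 1 or 2 it also passed, at log2 -2.57 and -1.88, but the spread then came from the WT and SIN pairs alone. Without WT replicate 1 or 2 (adjusted p = 0.341 and 0.533) or SIN replicate 1 or 2 (0.22 and 0.213) it did not pass. Over all 12 alternatives the log2 fold change ran from -2.57 to -1.88 and the adjusted p from 2.44e-38 to 0.533. SIN versus WT and WT versus N2 share the WT libraries, so they are not independent views of the gene.

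Some tissue markers were also lower in WT than in N2. The median log2 fold change in WT versus N2 was -0.29 for 12 intestine markers, -0.24 for 10 epidermis markers, 0.02 for 12 germline markers and 0.09 for 10 body wall muscle markers, against -0.03 for all genes. Among intestine markers, the esterase gene ges-1 was at 17.1 and 17.1 CPM in WT and between 18.8 and 26.1 CPM elsewhere, and the protease gene cpr-6 at 862 and 782 CPM in WT and between 1022 and 1151 CPM elsewhere. Both were thus lowest in WT, as fat-5 was, and rose in SIN versus WT (edgeR adjusted p = 0.0334 and 0.0296). Others of the 12 went the other way in SIN versus WT. The gene vha-6 fell, with raw counts of 7725 and 7383 in WT, 4154 and 4635 in SIN and 5673 and 7582 in N2. Raw counts of act-5, which did not pass, were 13170 and 11813 in WT, 4429 and 6325 in SIN and 7026 and 13616 in N2. The part of the tissue makeup in the fat-5 difference was not tested. Markers of the intestine summed to 2457 and 2465 CPM in WT, against 2451 and 3216 CPM in N2 and 2087 and 2483 CPM in SIN. All 12 were detected in every library, and 2 rose and 1 fell in SIN versus WT, where 12.1% of all tested genes rose and 13.3% fell. In WT versus N2 0 were called, where 0.11% of all genes were. Body wall muscle markers (0 of 10 called in any of the comparisons) summed to 3442 and 3956 CPM in WT and to 2041 to 4711 CPM in the other libraries. Epidermis markers summed to 2623 and 3367 CPM in WT, within the range of 1275 to 3391 CPM of the rest, with 10 of 12 tested and rol-6 at 0 in WT replicate 2. Germline markers summed to 9247 and 8911 CPM in WT, against 8366 to 8960 in N2 and 6996 to 7094 in SIN, and in SIN versus WT 3 of the 12 rose and 6 fell (4 and 1 with upper-quartile scaling). In whole worms, fewer cells of a type and less RNA per cell cannot be told apart.

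In the annotation used here, few reads were assigned to the genes that overlap fat-5. How many of their reads were counted as fat-5 was not tested. The potassium channel gene twk-42 overlaps its last 28 bases on the other strand and had 144 to 194 counts per library, with 194 and 162 in WT. The noncoding RNA W06D12.8 lies within it on the other strand and had at most 5 counts. Neither had the pattern of fat-5, whose counts were 460 and 366 in WT and 1750 to 2698 in the other 4 libraries. The remaining 8 genes overlap no other gene in the annotation. The deposited length of fat-5 is 2335 bases against an annotated extent of 1815, so overlaps in the gene model that was counted are not known.

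**Figure D2:**
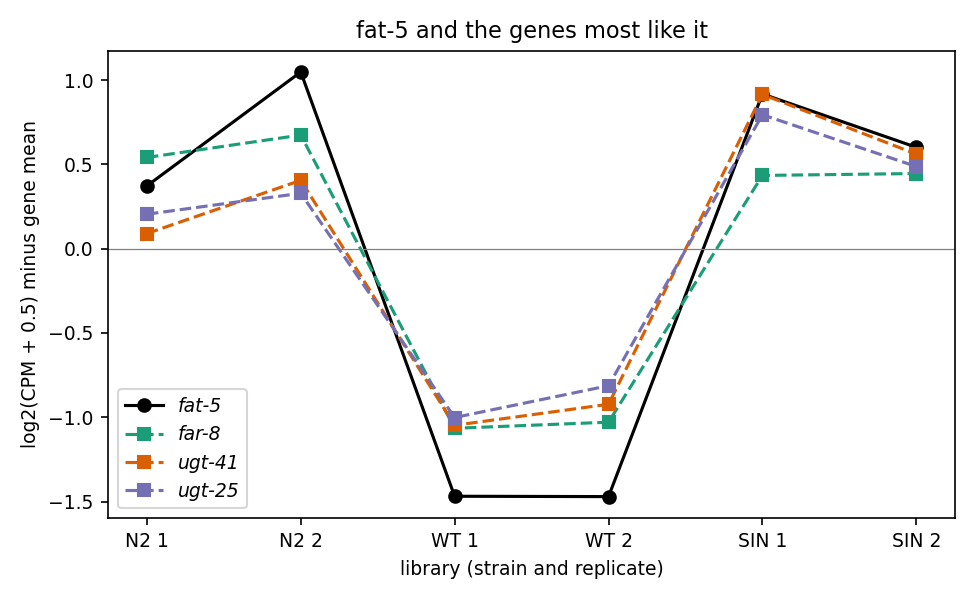
Pattern of fat-5 and of the 3 genes most like it across the 6 libraries (horizontal axis: strain and replicate); the vertical axis is log2(CPM + 0.5) minus each gene's mean over the libraries. All 4 genes have their lowest values in both WT libraries, and the 3 were picked for likeness to fat-5 over these same libraries.

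The genes nearest to fat-5 in pattern were lowest in both WT libraries too, which follows from how they were picked. Among 7302 genes with a mean of at least 10 CPM, the nearest, by root mean square difference of centred log2 levels over the 6 libraries, were far-8, ugt-41 and ugt-25, at 0.36, 0.40 and 0.45. The far-8 gene belongs to a family of fatty acid and retinol binding proteins, and ugt-41 and ugt-25 to the UDP-glucuronosyltransferases. Expression of far-8 was 57.4 and 63.0 CPM in the N2 libraries, 18.5 and 19 in the WT libraries and 53.3 and 53.7 in the SIN libraries. Levels of ugt-41 were 9.61 and 10.5 CPM in WT and between 21.7 and 38.9 CPM elsewhere. Those of ugt-25 were 5.4 and 6.23 CPM in WT and between 13.1 and 20.0 CPM elsewhere. No gene came within 0.2 of fat-5, whereas 2111 did so for fat-1, whose level hardly varied. The measure grows with how much a gene varies, so these counts do not tell how rare a pattern is. The SD of the centred log2 levels was 1.06 for fat-5 and 0.097 for fat-1.

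The stearoyl-CoA desaturase genes fat-6 (chromosome IV, 11913692 to 11915687, minus strand) and fat-7 (chromosome V, 7151353 to 7153146, minus strand) differed less between strains than fat-5. They are close copies, so reads may be divided between them. Levels of fat-6 were 373 and 497 CPM in the N2 libraries, 327 and 342 in the WT libraries and 369 and 375 in the SIN libraries. Both WT libraries lay below the other 4, as for fat-5, but by far less: SIN exceeded WT 1.11-fold and WT was 1.3-fold below N2 (edgeR adjusted p = 0.472 and 0.215). Without N2 replicate 1 the differences of WT and of SIN from N2 passed, with log2 fold changes of -0.57 and -0.43 (adjusted p = 0.0049 and 0.0028). Without N2 replicate 2 they were -0.15 and -0.0074 (adjusted p = 0.205 and 0.953).

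For fat-7 the order of the strains was another. It stood at 84.5 and 134 CPM in the N2 libraries, 91.1 and 75.1 in the WT libraries and 60.8 and 76.6 in the SIN libraries. Both SIN libraries lay below both N2 libraries, and SIN and WT overlapped. SIN was 1.59-fold below N2 (log2 -0.67 ± 0.24 SE, edgeR adjusted p = 0.0929), which passed with DESeq2 (adjusted p = 0.0357) and without N2 replicate 1 (log2 -0.97, adjusted p = 0.00598). Without N2 replicate 2 the value was -0.30 (adjusted p = 0.201). The 1.21-fold lower level in SIN than in WT did not pass (adjusted p = 0.449). With fat-6 and fat-7 counted as 1 gene, the log2 fold changes were 0.08 in SIN versus WT, -0.30 in SIN versus N2 and -0.38 in WT versus N2, none past the test (adjusted p = 0.752, 0.19 and 0.24).

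Most reads of the first desaturation step were those of fat-6, at 71.2% to 79.9% of the 3 genes' counts. Of the reads of fat-5, fat-6 and fat-7 together, fat-5 took 2.62% in each WT library (95% Wilson intervals 2.39% to 2.87% and 2.37% to 2.9%, counting error only). It took 8.34% and 9.56% in N2, and 12.4% and 9.76% in SIN. The summed level of the 3 genes was 429 CPM in both WT libraries, 490 and 500 CPM in SIN and 499 and 698 CPM in N2. The ratio of fat-6 to fat-7 reads ran from 3.59 to 4.56 in N2 and WT and was 6.07 and 4.89 in SIN.

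Transcripts of elo-2 (chromosome IV, 17466062 to 17467408, minus strand), whose product feeds stearic acid to FAT-6 and FAT-7, varied most between replicates of the transgenic strains. They stood at 86.6 and 84.4 CPM in the N2 libraries, 99.6 and 65.0 in the WT libraries and 42.9 and 73.6 in the SIN libraries. Replicates differed 1.53-fold in WT and 1.72-fold in SIN, against 1.03-fold in N2. SIN was 1.41-fold below WT and 1.47-fold below N2 (edgeR adjusted p = 0.276 and 0.226), and both SIN libraries lay below both N2 libraries. The log2 fold change from WT of -0.50 became -0.17 without SIN replicate 1 or WT replicate 1, -0.95 without SIN replicate 2 and -0.77 without WT replicate 2. That from N2 of -0.56 became -0.22 without SIN replicate 1 and -0.997 without SIN replicate 2. The gene nearest to elo-2 in pattern was fard-1, named for a fatty acyl-CoA reductase, at a root mean square difference of 0.11.

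The genes that act in turn on the polyunsaturated chain are on chromosome IV, in part side by side. In the annotation fat-4 (9799429 to 9802226) and fat-3 (9803023 to 9806119) are 796 bases apart on the plus strand. The genes fat-1 (13315644 to 13318811) and fat-2 (13323873 to 13326395) are 5061 bases apart on the same strand. The ratio of fat-2 to fat-1 counts stayed between 0.912 and 1.27 over the 6 libraries. That of fat-4 to fat-3 was 1.57 in N2 replicate 1 and between 2.42 and 3.17 in the other 5. Of all pairs among the 9 genes, fat-1 and fat-4 had the lowest root mean square difference, 0.13 on the log2 scale. It was 0.18 for fat-1 and fat-2 and 0.31 for fat-3 and fat-4. The measure is low where both genes vary little. By correlation over the 6 libraries, fat-1 and fat-2 stood closer (r = 0.98) than fat-1 and fat-4 (r = 0.53).

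Expression of fat-2, for the enzyme that makes linoleic acid, was 660 and 420 CPM in the N2 libraries, 486 and 560 in the WT libraries and 663 and 723 in the SIN libraries. Both SIN libraries lay above the other 4, by little in the case of N2 replicate 1. SIN exceeded WT 1.33-fold (log2 0.41 ± 0.21 SE) and N2 1.28-fold (edgeR adjusted p = 0.214 and 0.259). Without N2 replicate 1 both differences passed, with log2 fold changes of 0.40 and 0.71. Without N2 replicate 2 they were 0.40, which passed, and 0.066, which did not, so the difference from N2 rested on which N2 library was kept. The difference from WT did not pass when any 1 WT or SIN library was left out. Its log2 fold change then ran from 0.30 to 0.51.

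The level of fat-3, whose enzyme acts next, depended on a single N2 library. N2 replicate 1 had 208 CPM where its partner had 95.5, beside 102 and 97.9 CPM (WT) and 126 and 122 CPM (SIN). The WT and SIN replicates differed by at most 1.04-fold, and the N2 replicates by 2.18-fold. SIN was 1.24-fold above WT (log2 0.32 ± 0.34 SE, edgeR adjusted p = 0.543). The difference passed when either N2 library was left out, since the N2 pair then no longer entered the spread. It did not pass when any 1 WT or SIN library was left out. Against N2 the sign turned with the library used: SIN was lower by log2 -0.75 without N2 replicate 2 (adjusted p = 0.000124) and higher by 0.37 without N2 replicate 1 (adjusted p = 0.0123). The part of the collagen genes, which went both ways in N2 replicate 1, and of its other differences in this was not tested. The genes most like fat-3 were tth-1, sup-26 and ztf-13, at root mean square differences of 0.08. They were also highest in N2 replicate 1, which follows from how they were picked.

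**Figure D3:**
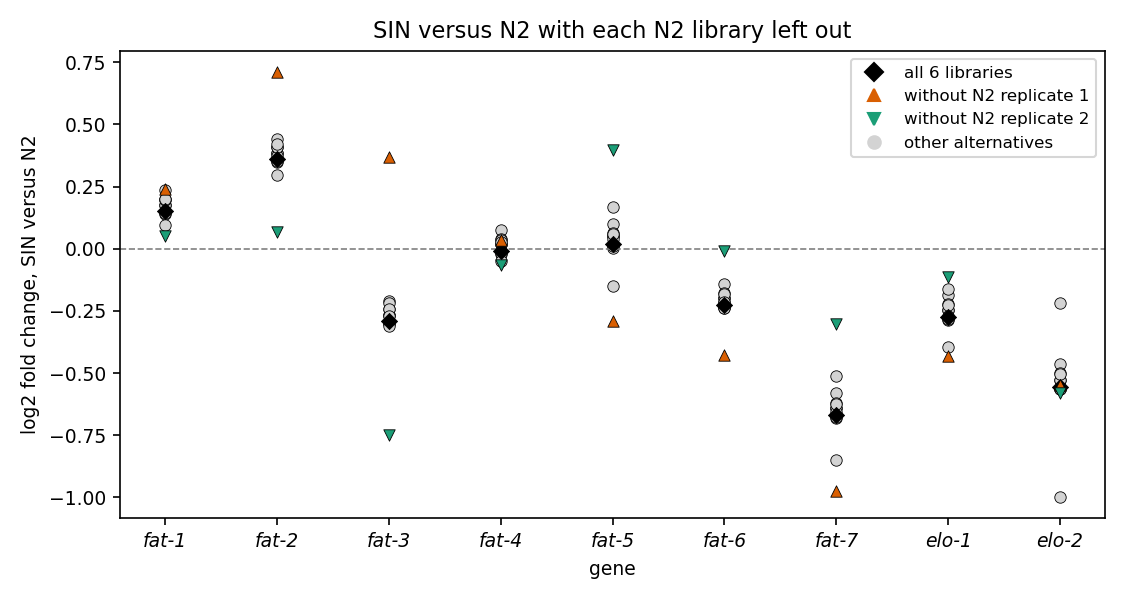
Log2 fold change of SIN versus N2 for each gene (vertical axis) with all 6 libraries, without either N2 library and under the other alternatives. For fat-3 the value is -0.29 with all libraries, 0.37 without N2 replicate 1 and -0.75 without N2 replicate 2.

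The elongase gene elo-1 (chromosome IV, 9526366 to 9528336, plus strand) was the one member with both SIN libraries below both WT libraries. Its levels were 187 and 219 CPM in the SIN libraries, 242 and 247 in those of WT and 219 and 272 in those of N2. SIN was 1.21-fold below both WT and N2 (edgeR adjusted p = 0.177 and 0.168). The difference from WT passed in 4 of 12 alternatives. Among them were the fits without either N2 library (log2 fold change -0.28), where the N2 pair no longer entered the spread. It did not pass when any 1 WT or SIN library was left out. With each library left out, the log2 fold change ran from -0.40 to -0.16.

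Levels of fat-4, the desaturase gene for the step after ELO-1, were among the steadiest within strains. They were 327 and 303 CPM in the N2 libraries, 246 and 261 in the WT libraries and 305 and 321 in the SIN libraries. Both WT libraries lay below the other 4, and N2 and SIN overlapped, the same order of strains as for fat-5 but with a far smaller difference. SIN rose 1.23-fold over WT (log2 0.30 ± 0.09 SE, edgeR adjusted p = 0.0494). The call was lost with RLE scaling (adjusted p = 0.0513), without the filter on low counts (0.119) and without any of the WT and SIN libraries (WT replicates 0.369 and 0.199, SIN replicates 0.136 and 0.201). The authors' deposited table lists an adjusted p of 0.0233 for fat-4, with a log2 fold change of 0.29. WT was 1.24-fold below N2 (adjusted p = 0.159), which passed without N2 replicate 2 (adjusted p = 0.0117).

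The omega-3 desaturase gene fat-1 varied least of all 9. It was at 527 and 461 CPM in the N2 libraries, 483 and 502 in the WT libraries and 529 and 568 in the SIN libraries, a range of 1.23-fold from the lowest to the highest library. Both SIN libraries were above the other 4, the lower of them by about 1 CPM over N2 replicate 1. SIN was 1.11-fold above WT and above N2 (edgeR adjusted p = 0.328 and 0.334), and in WT versus N2 the log2 fold change was -0.0044 ± 0.11.

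**Figure D4:**
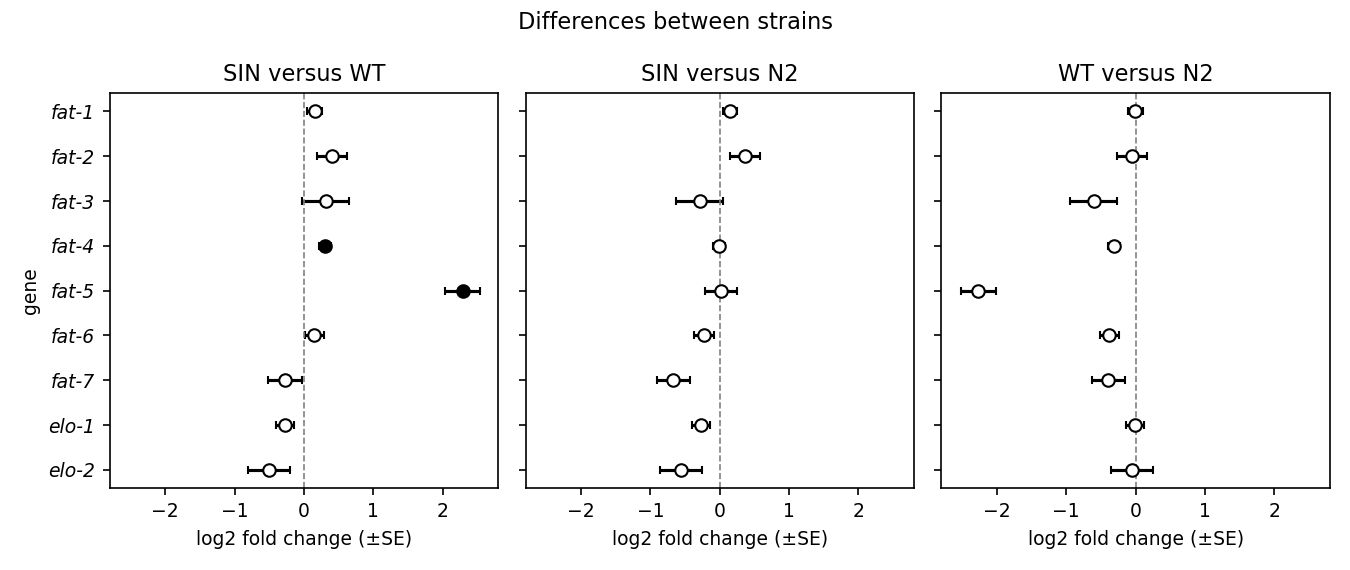
Log2 fold change with its SE (horizontal axis) of the 9 genes in the 3 comparisons, from the fit with all 6 libraries; filled points passed an adjusted p of 0.05. Those are fat-5 (2.29) and fat-4 (0.30) in SIN versus WT; fat-5 in WT versus N2 (-2.27, adjusted p = 0.0502) is open.

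In SIN versus WT 2 of 9 rose and 0 fell, where 25.5% of all tested genes were called in either direction, 12.1% as rises and 13.3% as falls. The libraries of SIN and WT did not overlap for 6 genes that were higher and 1 that was lower; over all genes this held for 73.4%, of which 38.4% higher and 35% lower. The median log2 fold change was 0.15 for the 9 genes and 0.04 for all genes, and 6 of 9 lay above 0 under each scaling tried.

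In SIN versus N2, 0 of 9 were called by edgeR, against 25.6% of all genes, 12.3% higher and 13.3% lower. An unadjusted p below 0.05 was reached by 1 of the 9, fat-7, which ranked 5500 by p among the 15404 tested genes. It was also called by DESeq2, which called 4390 genes in this comparison. The libraries did not overlap for fat-1 and fat-2, higher in SIN, and for fat-7 and elo-2, lower in SIN; over all genes they did not for 62.7%, with 29.6% higher and 33.1% lower.

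In WT versus N2, 0 of 9 were called by edgeR and 0.11% of all genes, 0.0454% higher and 0.0649% lower. Among the 9, DESeq2 called 1, fat-5, beside 1117 of all 15404 tested genes. An unadjusted p below 0.05 was reached by 3 of the 9, fat-5, fat-4 and fat-6. How many of all genes reached it was not counted. These 3 were also the genes whose WT and N2 libraries did not overlap, all lower in WT, which held in either direction for 53.1% of all genes, 25.4% higher and 27.7% lower.

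The median in WT versus N2 was -0.31 for the 9 genes and -0.03 for all genes. All 9 log2 fold changes were below 0 there, although fat-1 and elo-1 lay at -0.0044 and -0.003 and turned positive with RLE scaling and DESeq2. Among the 9 ranked by p in that comparison, fat-5 came first and was the gene of rank 22 in the whole table. The 3 comparisons share libraries pairwise, so their values are given side by side and not as separate evidence.

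Levels of different genes can be compared per length of transcript, and here the deposited gene lengths bore on the order. With these lengths, fat-1 was the most abundant of the 9 per kilobase and fat-2 the next in every strain, at 356 ± 34 and 217 ± 68 CPM per kilobase in N2 (SD, n = 2). The lowest was fat-5, at 23.2 ± 7.6 CPM per kilobase in N2, 4.81 ± 0.0051 in WT and 23.5 ± 3.7 in SIN. The gene fat-6 then stood at 42.3 ± 8.5 CPM per kilobase in N2, below fat-7 at 97.3 ± 31.

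The deposited length of fat-6 is 10287 bases, while the gene spans 1996 bases in the annotation and its exons cover 1166. Deposited lengths were over 1.5 times the exon length for 6 of the 9 genes (fat-2, fat-3, fat-4, fat-5, fat-6 and elo-1), against 3.21% of all annotated genes of the table, and within 10% of it for fat-1, fat-7 and elo-2. For 5 of the 9 they exceeded the whole extent of the gene, so the gene model behind them is not that of the annotation used here. The counts may then have been collected over other gene models too, and what that does to the fold changes was not tested.

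With the exon length, fat-2 came first in every strain and fat-6 moved from the lower part of the order to rank 2 or 3. Its level was 373 ± 75 CPM per kilobase in N2, 287 ± 9.3 in WT and 319 ± 3.8 in SIN. That of fat-7 was 97.0 ± 31, 73.8 ± 10 and 61.0 ± 10 CPM per kilobase. In N2 the libraries of fat-2, fat-6 and fat-1 overlapped between neighbours in this order, so their ranks there are not separated. Those of fat-7 overlapped with elo-2 in all 3 strains under either length. The lowest rank was that of fat-5 in every strain with both lengths, although in SIN its libraries overlapped those of elo-2 with the exon length.

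**Figure D5:**
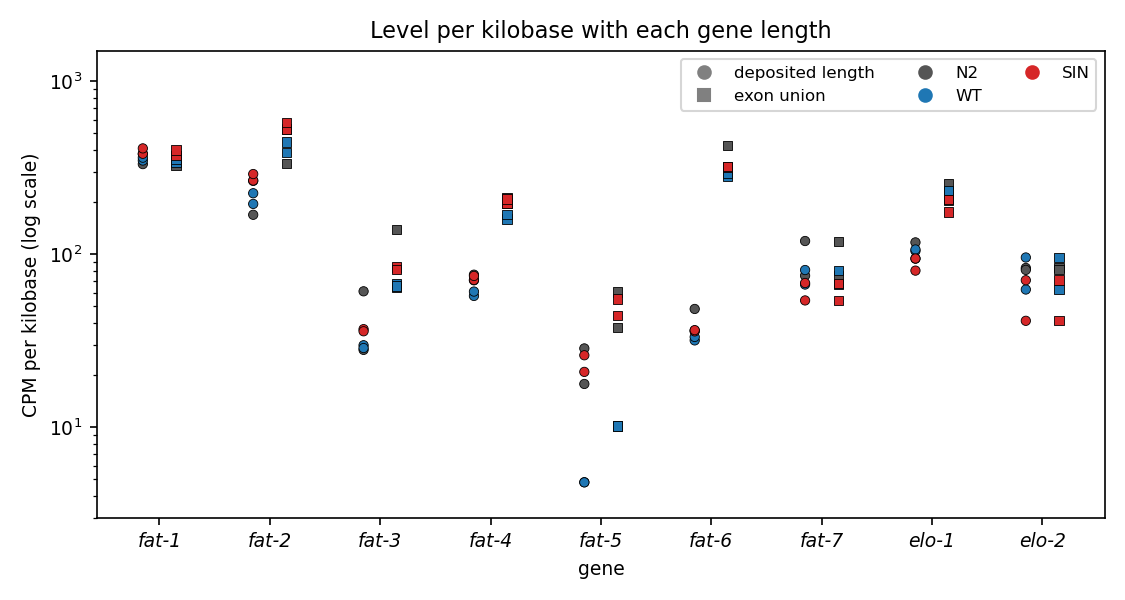
Level per kilobase of the 9 genes on a log axis, by library (colour: strain), with the deposited gene length (circles) and the length covered by exons in the annotation (squares). The squares of fat-6 lie near 300 and its circles near 40 CPM per kilobase; fat-1, fat-7 and elo-2 have nearly the same value with both.

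The authors deposited, beside the counts, small RNA data from other studies. Of the 9 genes, 6 had no listed 22G RNA value in either set: fat-2, fat-3, fat-5, fat-6, fat-7 and elo-2. The authors' deposited table lists 37.7, 12.4 and 39.4 RPM in a CSR-1 immunoprecipitate for fat-1, fat-4 and elo-1, where the median of the 5517 genes listed is 36.9 RPM. A second deposited set gives a 22G read score and lists no value below 25; in it fat-4 stood at 55.6 and elo-1 at 26.1, both below the median of 97.8 over the 4133 genes listed. The gene with the large difference between strains, fat-5, has no listed value. Both fat-4 and elo-1 are listed in both sets, and elo-1 did not pass in SIN versus WT (edgeR adjusted p = 0.177). The part of 22G RNAs in the differences was not tested. The table marks 5 of the 9 as germline expressed (fat-1, fat-2, fat-4, elo-1 and elo-2) and 0 as germline specific or germline enriched. How many of all genes carry these marks, or lack a value in both small RNA sets, was not counted. These counts therefore do not tell whether the 9 are unusual.

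The other enzymes of chain elongation moved in both directions in SIN versus WT. The elongase gene elo-3 rose 1.23-fold, from 114 and 110 to 140 and 136 CPM, and its relative elo-8 rose 9.97-fold, from 0.269 and 0.552 to 4.47 and 3.66 CPM (edgeR adjusted p = 0.0357 and 0.00463). The neighbour of elo-1, elo-7, which lies 1610 bases from it on the same strand, rose 4.53-fold, from 0.0734 and 0.184 to 0.597 and 0.558 CPM (adjusted p = 0.0371, and 0.117 with DESeq2). These levels are near the floor. The WT libraries lay below the minimum count of the filter and the SIN libraries above it, so the call is not independent of the filter. The lower values of elo-1 did not pass. The genes elo-5 and elo-6, for the elongases of branched-chain fatty acids, and elo-4 and elo-9 did not pass, with adjusted p between 0.178 and 0.496. Genes for the steps that follow each elongase in its cycle were lower: hpo-8, a dehydratase homologue, fell 1.6-fold and art-1, a reductase homologue, 1.5-fold (adjusted p = 0.0172 and 0.0303). Of the 10 genes in this list 3 rose and 3 fell, or 3 and 1 with upper-quartile scaling, where 12.1% of all tested genes rose and 13.3% fell. In WT versus N2 0 passed, beside 0.11% of all genes.

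Desaturases draw electrons through cytochrome b5, and its reductase gene hpo-19 fell 1.51-fold, from 197 and 190 to 125 and 131 CPM (adjusted p = 0.0161). The cytochrome b5 gene cytb-5.1 was 1.31-fold lower without passing (adjusted p = 0.0509), and cytb-5.2 was at 78.3 and 74.9 CPM (WT) and 72.9 and 74.2 CPM (SIN). Among the enzymes that make the precursors, acly-2, an ATP-citrate lyase gene, fell 1.53-fold (adjusted p = 0.00634). The fatty acid synthase gene fasn-1 (1.46-fold higher, adjusted p = 0.111) and the acetyl-CoA carboxylase gene pod-2 (log2 0.03) did not pass.

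Of 18 known regulators of the desaturase genes, 1 rose and 1 fell in SIN versus WT (4 and 1 with upper-quartile scaling). Over all tested genes 12.1% rose and 13.3% fell. The median log2 fold change of the 18 was -0.03. The gene nhr-13, for a nuclear receptor that acts with NHR-80 and NHR-49 on the stearoyl-CoA desaturase genes, fell 2.32-fold, from 16.4 and 15.3 to 7.05 and 6.59 CPM (edgeR adjusted p = 0.00523). The gene paqr-2, for a membrane protein that keeps membranes fluid and promotes fatty acid desaturation, rose 2.12-fold, from 72.0 and 70.9 to 151 and 152 CPM (adjusted p = 0.00103). Levels of nhr-49 (126 and 129 CPM in WT, 143 and 135 in SIN), nhr-80 (8.66 and 9.33, 10.6 and 9.12), mdt-15 (152 and 153, 154 and 170) and sbp-1 (16.4 and 16.9, 13.5 and 16.7) did not pass, with adjusted p between 0.311 and 0.698. In WT versus N2 0 of the 18 were called by edgeR, beside 0.11% of all genes; nhr-13 was at 16.6 and 15.1 CPM in N2 and paqr-2 at 74.0 and 66.4 CPM, close to their WT levels.

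In fits that dropped 1 library of WT or SIN, a lone library remained in that group, assumed to vary like the others. Of 25 called genes of these lists and of those described in the closing paragraphs, 22 then lost the call without at least 1 of those libraries, with adjusted p of 0.051 to 0.268. The gene paqr-2 was among the 3 whose call held in every alternative.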

How the data were processed

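RNA-seq of poly(A) RNA (TruSeq stranded mRNA kit, 500 ng of total RNA, 50-base single reads, per the labels' protocols) gave raw read counts per gene, deposited by the authors in 1 table for the whole series. STAR, HTSeq, DESeq and DESeq2 and the build WBcel235 are named, without versions or roles, per the submitters' processing notes; no release of the annotation and no strand setting is stated there. The table also holds the authors' mean RPKM per strain, which was not tested, and, per the file headers, a log2 value for SIN relative to WT with its p-value (adjusted), and from other studies a 22G read score, RPM in a CSR-1 immunoprecipitate and its enrichment over input as a fraction, all deposited by the authors. A further 3 columns, ratios and an input from those studies, were not used.

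Counts were tested with edgeR 4.0.16 (R 4.3.3) as deposited: TMM scaling, filterByExpr (minimum count 10, minimum total 15), 1 model of 3 strain means over all 6 libraries (3 residual degrees of freedom), robust quasi-likelihood fit, and Benjamini-Hochberg adjustment over 15404 genes with a threshold of 0.05. The code was run on simulated data with 1 spread for all genes and libraries. The spread of these data differs between strains, so that run does not give the error rate here. Levels are TMM-scaled CPM; similarity between genes used log2(CPM + 0.5). Positions came from the Ensembl annotation of WBcel235. Wilson intervals have a level of 95%. Alternatives were RLE and upper-quartile scaling, no filter, DESeq2 1.42.0, only the groups compared, a replicate block and each library left out; the fat-6 and fat-7 sum and the exon length were added after seeing the data. The 9 genes were all named, with the 3 genes most like each, up to 4 genes of each pathway list by smallest p in SIN versus WT, and fixed relatives and regulators. The members and lists were chosen with earlier results of these data known.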

Additional observations from a re-analysis of the deposited data

How the results depend on the processing

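With all 6 libraries 3922 genes were called in SIN versus WT, 3942 in SIN versus N2 and 17 in WT versus N2. With only the groups compared these were 6521, 1914 and 0, and without the low-count filter 5922 in SIN versus N2 and 2217 in WT versus N2. WT versus N2 also gave 29 with RLE scaling, 10 with upper-quartile scaling and 1117 with DESeq2. Leaving out 1 library gave 361 to 6751, 704 to 6028 and 0 to 4201. Of the 9 genes, 2, 0 and 0 were called; in SIN versus WT this became 1 with RLE scaling, 4 without the filter and 5 with only the groups compared, in SIN versus N2 3 without the filter and 1 with DESeq2, and in WT versus N2 1 with RLE scaling, 3 without the filter and 1 with DESeq2. Leaving out 1 library gave 1 to 5, 0 to 5 and 0 to 4 of the 9. The cause was not tested.

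Replicate numbers are shared by the strains, but nothing in the labels says that they pair libraries; deviations of replicate 1 correlated across genes by 0.23 (N2 and WT), 0.37 (N2 and SIN) and 0.36 (WT and SIN). With a replicate block WT versus N2 gave 253 genes and 1 of the 9, fat-5 (log2 -2.25, adjusted p = 0.0262), and the log2 fold change of elo-1 was 0.0064.

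Small differences changed sign. In WT versus N2, elo-1 became 0.022 with RLE scaling, 0.027 without the filter and 0.022 with DESeq2, and fat-1 became 0.019, 0.026 and 0.019. In SIN versus N2, fat-4 became 0.018 with RLE scaling and with DESeq2, 0.075 with upper-quartile scaling and 0.040 with only the groups compared. In SIN versus WT, cytb-5.2 became 0.078 under the upper-quartile setting, where the median over all genes went from 0.04 to 0.17, and pod-2 became -0.015 without the filter. With 1 library left out, log2 fold changes in WT versus N2 ran from -0.15 to 0.17 for elo-1, -0.092 to 0.096 for fat-1, -0.39 to 0.27 for elo-2, -0.33 to 0.31 for fat-2 and -1.05 to 0.063 for fat-3. In SIN versus N2 they ran from -0.75 to 0.37 for fat-3, -0.067 to 0.037 for fat-4 and -0.29 to 0.40 for fat-5. In SIN versus WT they ran from -0.14 to 0.16 for pod-2, -0.75 to 0.00035 for elo-5, -0.32 to 0.0013 for sbp-1, -0.61 to 0.037 for vit-1 and -0.055 to 0.34 for vit-6. No alternative changed the depth, so its part was not tested.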

Other observations

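Genes for making membrane lipids from the finished fatty acids fell more often than they rose in SIN versus WT. Of 29 tested genes of phospholipid and triglyceride synthesis 3 rose and 9 fell (3 and 7 with upper-quartile scaling). Over all tested genes 12.1% rose and 13.3% fell. The median log2 fold change was -0.36 for the 29 genes against 0.04 for all genes. The gene cept-2, for a choline or ethanolamine phosphotransferase, fell 1.77-fold, from 93.4 and 92.8 to 51.9 and 53.5 CPM (edgeR adjusted p = 0.00436). The choline kinase gene ckb-4 fell 1.9-fold, from 16 and 16.1 to 8.51 and 8.43 CPM (adjusted p = 0.00934), and mboa-7, for an acyltransferase that places polyunsaturated chains into phosphatidylinositol, fell 1.83-fold, from 22.8 and 20.0 to 11.4 and 12 CPM (adjusted p = 0.00952). The acyltransferase gene acl-11 rose 1.8-fold, from 29.9 and 29.5 to 56.8 and 50.5 CPM (adjusted p = 0.00655). Germline markers moved both ways in the same comparison, where 3 of 12 rose and 6 fell (4 and 1 with upper-quartile scaling). Their part in these values was not tested.

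Genes of fatty acid breakdown and activation were divided. Of 37 tested beta-oxidation genes 4 rose and 3 fell (4 and 1 with upper-quartile scaling), where 12.1% of all tested genes rose and 13.3% fell. The same shares of all genes apply to the lists below. The carnitine palmitoyltransferase gene cpt-3 rose 15.8-fold, from 0.807 and 0.43 to 11.9 and 7.98 CPM (adjusted p = 0.00188), and stood at 4.02 and 4.35 CPM in N2. The acyl-CoA dehydrogenase genes went both ways: acdh-13 rose 2.04-fold, from 73.5 and 75.7 to 157 and 147 CPM, and acdh-3 fell 1.71-fold, from 209 and 214 to 120 and 129 CPM (adjusted p = 0.00223 and 0.00741). Of 21 tested acyl-CoA synthetase genes 4 rose and 0 fell, among them acs-22 by 1.83-fold (adjusted p = 0.0148). Of 20 tested genes for lipid binding, lipolysis and lipid droplets 3 rose and 3 fell (4 and 1 with upper-quartile scaling). In the lists of 6 yolk protein genes and 5 genes of polyunsaturated fatty acid epoxidation and epoxide hydrolysis, edgeR called 0 in SIN versus WT. It called 25.5% of all tested genes there.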
